A study of Mus musculus with 3 samples.

Results

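miR-22 was described from both arms of its hairpin, Mir22, which is 1 of 1025 mouse miRNA hairpins searched. Its members were chosen by sequence and not by level: inserts of 18 to 25 nt that match the hairpin exactly, or exactly apart from 1 or 2 added 3' bases that the gene does not encode (an untemplated tail). In animals a miRNA hairpin is cut out of its primary transcript by Drosha and its loop is removed by Dicer. This leaves a duplex of a 5p and a 3p strand, and the strand kept in an Argonaute protein finds target mRNAs through its seed, bases 2 to 8. miR-22-3p, the usual guide strand, is known in mouse heart muscle for a part in hypertrophic growth and stress remodelling, with Sirt1 and Hdac4 among its described targets. miR-22-5p is the partner strand and less studied.

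The libraries were made from HL-1 cells, a line derived from mouse atrial heart muscle that keeps contracting in culture. All cells were transfected with siRNA by lipofection and harvested 48 h later, with 9 µl of a 20 µM siRNA stock per well. The library labelled siSrf1 and the library labelled siSrf2 carry, by title, siRNAs against Srf, the transcription factor serum response factor. The library titled siNon, for an unspecific siRNA, was not analysed here, so no value below is a difference from a control. The siRNA entries of the same samples disagree with the titles: Srf si2 for the library labelled siSrf1 and siNon for the library labelled siSrf2, while the library titled siNon has the entry Srf si1. With a single library for each title, differences have no replicate check, no test between conditions was possible, and all intervals (95%) cover counting error of reads only.

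The sequences below, from RefSeq (GRCm38.p6), show where the arms lie. The hairpin is printed with both arms in capitals and each arm with its seed in capitals.
Mir22 hairpin: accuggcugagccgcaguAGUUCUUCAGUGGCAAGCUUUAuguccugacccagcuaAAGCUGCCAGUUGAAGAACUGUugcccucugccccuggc
miR-22-5p: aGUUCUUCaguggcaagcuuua
miR-22-3p: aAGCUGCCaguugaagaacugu
The same 95 bases lie on the plus strand of chromosome 11 in NCBIM37, at chr11:75277218-75277312. There they fall inside exon 2 of the non-coding gene 2210403K04Rik, whose RefSeq symbol is Mir22hg (the miR-22 host gene), and of 1 transcript of Tlcd2 that shares this exon. In the minimum free energy fold (-41.9 kcal/mol), 19 of the 22 bases of each arm paired with the other arm. The first base of miR-22-5p, hairpin base 19, paired with base 76, and miR-22-3p ran 2 bases past this partner, to base 78. All 5 of the 18-base windows of miR-22-3p match NCBIM37 once. Of the 5 of miR-22-5p, 4 match once and 1 matches a further place, on chromosome 9. Neither seed was shared with another of the 1679 mature miRNAs in the RefSeq table.

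The libraries held 14911499 reads (labelled siSrf1) and 14518157 reads (labelled siSrf2), of which 5273154 and 4586446 were assigned to miRNA arms. Inserts matching the Srf mRNA, a check of the labels, numbered 20 sense and 16 antisense in the library labelled siSrf1, against 1053 sense and 177 antisense in the library labelled siSrf2. The higher number is thus in the library whose siRNA entry is siNon and whose title names Srf. Of the sense inserts, 18 (labelled siSrf1) and 1053 (labelled siSrf2) lay at bases 1881 to 1920 of the mRNA. Of the antisense inserts, 15 lay at bases 2081 to 2120 in the library labelled siSrf1. In the library labelled siSrf2, 135 lay at bases 1841 to 1880. The source of these inserts was not tested. How much Srf mRNA the cells held cannot be read from small RNA. Heart muscle markers were present. Together miR-1a-3p, miR-133a-3p, miR-208a-3p, miR-208b-3p and miR-499-5p made up 64.3% and 53.4% of miRNA reads in the libraries labelled siSrf1 and siSrf2. Most of this was miR-1a-3p, while miR-208b-3p had 829 and 864 reads (0.0157% and 0.0188%) and miR-208a-3p 66 and 65 (0.00125% and 0.00142%). Fibroblast and smooth muscle markers (4 of 4 seen) summed to 1.6% and 1.69%. Within the heart muscle list and this one the members differed in direction: miR-145a-5p had 716 and 2868 reads (log2 ratio -2.20, and -1.72 with TMM factors) beside miR-199a-3p (0.27), and miR-133a-3p had 6168 and 11119 beside miR-1a-3p, which held 62.7% and 51.7% of miRNA reads. In the same libraries miR-126a-3p of endothelium (miR-126a-5p was not measured here), the blood cell markers (4 of 4), the epithelial markers (4 of 6) and miR-206-3p of skeletal muscle each stayed at or under 0.0298%. So did miR-208a-3p and miR-208b-3p of the heart muscle list. The epithelial markers miR-141-3p and miR-205-5p had 0 reads in both libraries.

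Scaled to all miRNA reads, both arms of miR-22 were nearly level between the libraries, and their ratios rest on this scaling. miR-22-3p had 7025 reads in the library labelled siSrf1 and 6218 in the library labelled siSrf2, which is 1332 and 1356 RPM (reads per 1000000 miRNA reads). After adding 0.5 reads to each count, its log2 ratio (siSrf1 minus siSrf2) was -0.03 (exact conditional binomial interval -0.07 to 0.02). miR-22-5p had 894 and 732 reads, or 170 and 160 RPM, and a log2 ratio of 0.09 (-0.06 to 0.23). With this scaling both intervals include 0, while with others, given after the plot of coverage, they do not. A level in such a bulk library cannot tell fewer cells with the miRNA from less of it per cell. By abundance miR-22-3p ranked 35 in the library labelled siSrf1 and 37 in the library labelled siSrf2, and miR-22-5p ranked 71 and 86.

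**Figure D1:**
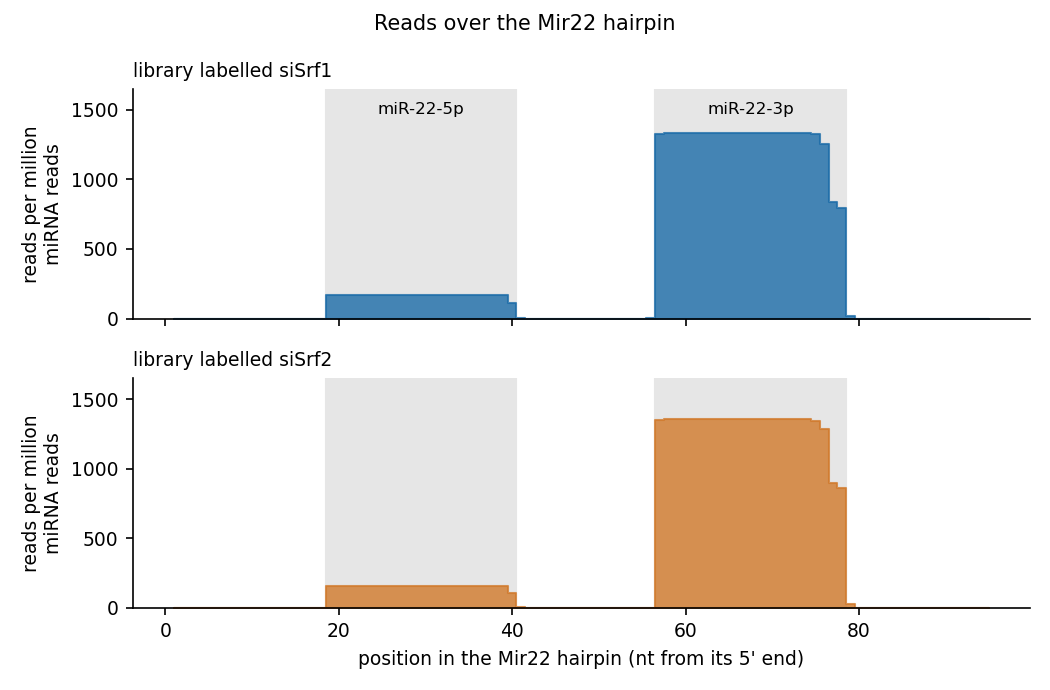
Coverage in RPM (reads per 1000000 miRNA reads, y axis) at each base of the Mir22 hairpin (x axis, nt from its 5' end), with the library labelled siSrf1 above the library labelled siSrf2 and the RefSeq arms in grey. Both libraries show a high block at miR-22-3p (1332 and 1356 RPM) with a step 2 nt before its end, and a low block at miR-22-5p (170 and 160).

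Both ratios stood above those of most miRNA arms, which took a larger part of the library labelled siSrf2. Of 247 arms with at least 50 summed reads, 64 (25.9%) were at least 2-fold higher in the library labelled siSrf2 with the whole interval on 1 side of 0, and 0 (0%) were so in the library labelled siSrf1. Of the 2 miR-22 arms, 0 were past this rule. The median log2 ratio of all arms was -0.43, with 49 above 0 and 198 below. Of all arms, 54 lay above miR-22-3p and 31 above miR-22-5p. With TMM factors the median moved up by 0.48, and miR-22-3p lay at 0.46 (0.41 to 0.51) and miR-22-5p at 0.57 (0.43 to 0.71). With median-of-ratios factors it moved up by 0.55, and miR-22-3p lay at 0.53 (0.48 to 0.58) and miR-22-5p at 0.64 (0.50 to 0.78), so that the sign of miR-22-3p depends on the scaling while neither arm reached 2-fold under any of them. With these factors the side higher in the library labelled siSrf1 held 7.89% and 13.2% of all calls, against 0% with the miRNA total.

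**Figure D2:**
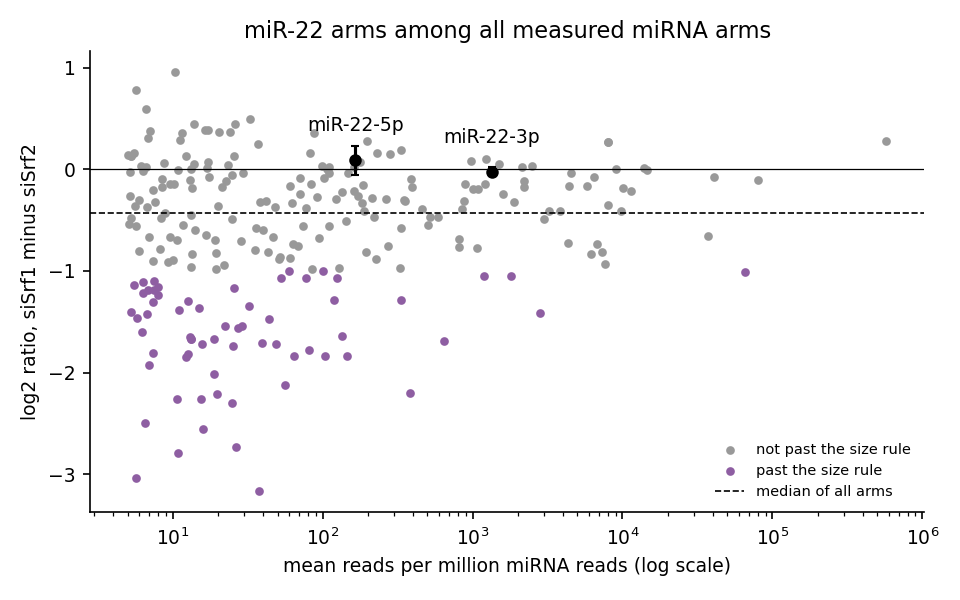
Log2 ratio, siSrf1 minus siSrf2 (y axis), against the mean of both libraries in RPM (x axis, log scale) for 247 miRNA arms, with 95% counting intervals on the miR-22 arms. miR-22-3p (-0.03) and miR-22-5p (0.09) lie near 0 and above the dashed median of -0.43, and the 64 arms past the size rule all lie below 0 with this scaling (3 of 38 lie above 0 with TMM factors).

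The miRNAs next to miR-22-3p in abundance had ratios on either side of it. Next above were miR-23a-3p (1528 and 1480 RPM in the libraries labelled siSrf1 and siSrf2, log2 ratio 0.05) and miR-99a-5p (1455 and 1717, log2 ratio -0.24). Next below were miR-29c-3p (1269 and 1182, log2 ratio 0.10) and miR-181a-5p (1158 and 1278, log2 ratio -0.14). The intervals of miR-99a-5p (-0.28 to -0.19), miR-29c-3p (0.05 to 0.15) and miR-181a-5p (-0.19 to -0.09) lay on 1 side of 0, while that of miR-23a-3p (0.00 to 0.09) reached 0 as did that of miR-22-3p. With TMM factors miR-22-3p lay at 0.46, between miR-99a-5p (0.25) and miR-181a-5p (0.34) on the lower side and miR-23a-3p (0.53) and miR-29c-3p (0.59) on the upper. Nearest to miR-22-3p in log2 ratio, among arms with at least 1000 summed reads, were miR-3963 (-0.04), miR-221-3p (-0.04) and miR-378c (-0.01), all within 0.013 of it. With 2 libraries this likeness rests on a single ratio. The reads given to miR-378c cannot be told apart here from miR-378a, whose hairpin was not in the set searched.

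Of 16 miRNAs linked to growth of heart muscle cells, 14 were measured (miR-212-3p and miR-378a-3p were not). Of these, 0 were past the size rule in the library labelled siSrf1 and 1 in the library labelled siSrf2. This arm was miR-133a-3p, a muscle miRNA that restrains such growth (1170 and 2424 RPM, log2 ratio -1.05, interval -1.10 to -1.01), beside 25.9% of all arms. Their median log2 ratio was -0.04, close to miR-22-3p and above the -0.43 of all arms, and it turned to 0.45 with TMM factors. The most abundant were miR-1a-3p of striated muscle (0.28), miR-499-5p, encoded in a myosin gene (0.01), miR-199a-3p (0.27, shared equally with the identical miR-199b-3p) and miR-21a-5p, induced in stressed heart (-0.08). With TMM factors these 4 lay at 0.76, 0.49, 0.76 and 0.41, and miR-133a-3p at -0.57, no longer 2-fold apart.

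miR-22-3p was the major arm in both libraries. miR-22-5p made up 11.3% of the 7919 reads of both arms in the library labelled siSrf1 (exact Clopper-Pearson interval 10.6 to 12) and 10.5% of 6950 in the library labelled siSrf2 (9.82 to 11.3). This is 7.86 and 8.49 reads of miR-22-3p for each of miR-22-5p. The difference of 0.757 percentage points had a Newcombe interval that includes 0 (-0.25 to 1.76). Reads without an adapter match are not in these counts, and they were more frequent for miR-22-5p (19.4% and 16.6%) than for miR-22-3p (9.77% and 9.78%). Over all reads that begin with the first 18 nt of an arm, with or without adapter, miR-22-5p made up 12.4% of 9020 and 11.1% of 7913. This difference, 1.34 points, had an interval that leaves out 0 (0.37 to 2.31). In the counts of inserts with an adapter, 61 hairpins had both arms measured. The difference was larger in size than the 0.757 points of Mir22 in 38 of them, and the median size was 1.09 points. The minor arm's median share over these hairpins was 10.2% and 9.23%, and 28 hairpins had a larger minor arm share than Mir22 in each library. No read lay wholly outside both arms, and 0 matched its opposite strand, which allows up to 3.69 reads in each library. At the edges of the length window, 25 and 33 reads were 18 nt long and 0 and 1 were 25 nt long, while just outside it 36 and 25 reads had 15 to 17 nt and 0 and 0 had 26 to 28 nt.

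The 5' end of both arms was nearly fixed, so the seeds were as well. In miR-22-3p 99.6% of reads in the library labelled siSrf1 (99.4 to 99.7) and 99.5% in the library labelled siSrf2 (99.3 to 99.6) began at the RefSeq start. Starts 1 base downstream had 26 and 27 reads, those 1 base upstream 2 and 3, and those 2 bases downstream 1 and 3. The downstream start by 1 base moves the seed to GCUGCCA, which miR-3966 shares in the RefSeq table. In miR-22-5p 893 of 894 reads and 727 of 732 reads began at the RefSeq start. Among 64 arms with at least 1000 reads in each library, the median share at the main start was 99.1% in both, and miR-22-3p ranked 13 and 17 from the highest.

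The 3' end carried nearly all of the variation. miR-22-3p was read as 58 distinct inserts in the library labelled siSrf1 and 54 in the library labelled siSrf2, 46 of them in both, and 8 of them with at least 1% of the arm's reads in either library held 94.1% and 93.8%. They are shown with untemplated bases in capitals, because all 8 share their start and differ in the last bases alone.
RefSeq form, 22 nt: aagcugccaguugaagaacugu
2 nt shorter, 20 nt: aagcugccaguugaagaacu
3 nt shorter with A, 20 nt: aagcugccaguugaagaacA
1 nt shorter, 21 nt: aagcugccaguugaagaacug
3 nt shorter, 19 nt: aagcugccaguugaagaac
RefSeq form with A, 23 nt: aagcugccaguugaagaacuguA
1 nt longer, 23 nt: aagcugccaguugaagaacuguu
2 nt shorter with UU, 22 nt: aagcugccaguugaagaacuUU

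The RefSeq form had 3937 reads in the library labelled siSrf1 (56%, interval 54.9 to 57.2) and 3621 in the library labelled siSrf2 (58.2%, 57 to 59.5). The form 2 nt shorter had 1975 (28.1%, 27.1 to 29.2) and 1604 (25.8%, 24.7 to 26.9). The form between them, 1 nt shorter, was far rarer, with 147 and 114 reads, so the ends of miR-22-3p fell into a pair of separate peaks. The shorter peak ends at hairpin base 76, opposite the first base of miR-22-5p in the predicted fold. The 20 nt form took 2.32 points more of the arm in the library labelled siSrf1 (0.803 to 3.83), and the difference of the RefSeq form was -2.19 points (-3.88 to -0.502). Of 13 named isoforms of both arms, 4 had a difference whose interval, not adjusted for their number, excluded 0. The other 2 were the RefSeq form with A (113 and 130 reads, -0.482 points) and the form 1 nt longer (71 and 91 reads, -0.453 points), and all 4 were of the 3p arm. Counting by templated end with tails included, 31.6% and 28.9% of reads ended 2 nt short (difference 2.73 points, 1.16 to 4.29) and 58.6% and 61.4% at the RefSeq end (-2.84 points, -4.51 to -1.17).

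**Figure D3:**
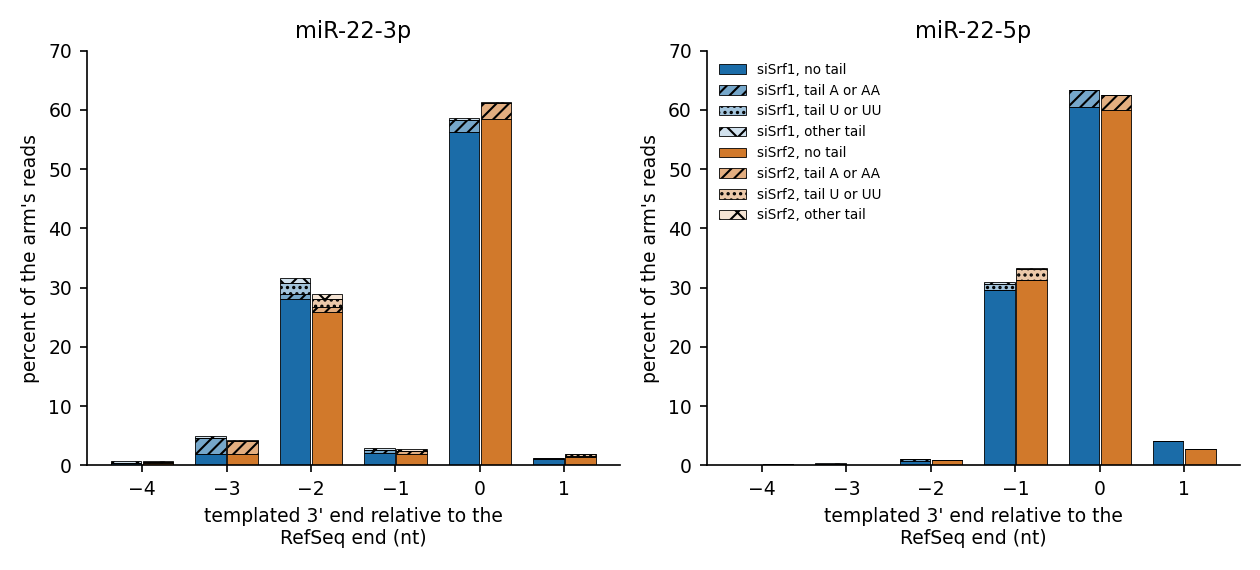
Percent of the arm's reads (y axis) by templated 3' end relative to the RefSeq end in nt (x axis) for miR-22-3p (left) and miR-22-5p (right), with the library labelled siSrf1 left of the library labelled siSrf2 and tails stacked as hatched parts. miR-22-3p has its main end at 0 (58.6% and 61.4%) and a separate peak at -2 (31.6% and 28.9%), while miR-22-5p has adjoining ends at 0 (63.4% and 62.6%) and -1 (31% and 33.3%).

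Few abundant miRNAs had so large a share of reads at shorter ends, whether or not these formed a separate peak. Among exact reads, 33.9% of miR-22-3p in the library labelled siSrf1 and 31.4% in the library labelled siSrf2 ended 2 nt or more before the main end, against medians of 3.31% and 2.78% over the 64 arms. miR-22-3p ranked 4 and 3 from the highest. The arms of miR-181a-5p (50.8% and 38.3%) and miR-23a-3p (43.3% and 35.9%) lay above it in both libraries, and miR-30a-5p (34.2% and 27.9%) in the library labelled siSrf1. Just below it in both libraries was miR-92b-3p (33% and 29.4%). For this measure these other arms were named after their values were seen. Of the 64 arms, 47 had a larger share of short ends in the library labelled siSrf1, and the difference of miR-22-3p, 2.49 points (0.803 to 4.17), ranked 11 among differences from -0.838 to 12.4. The share of 22 nt among exact reads of miR-22-3p was 62.4% and 64.7%, a difference of -2.28 points (-4.01 to -0.552), while 36 of the 64 arms had a difference above 0.

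Untemplated tails were found on 713 reads of miR-22-3p in the library labelled siSrf1 (10.1%, 9.45 to 10.9) and on 616 in the library labelled siSrf2 (9.91%, 9.18 to 10.7). In cells, such bases can be added by terminal nucleotidyl transferases. The difference was 0.243 points, with an interval from -0.786 to 1.27. Tails of A or AA were found on 6.06% and 6.43% of reads and tails of U or UU on 2.11% and 1.7%. These totals cannot be ranked, because an added U counts as templated wherever the next base of the gene is U, as at the RefSeq end. The shares of U tails and of any tail may thus be too low. Comparisons with other arms carry the same limit, which varies with each arm's sequence. Single C tails had 27 and 16 reads and single G tails 13 and 14. The shares of any tail, of A or AA and of U or UU lay below the medians of the 64 arms, which were 16.6% and 16.1% for any tail, 8.34% and 7.99% for A or AA and 5.08% and 5.03% for U or UU. miR-22-3p ranked 49 and 47 from the highest for any tail.

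**Figure D4:**
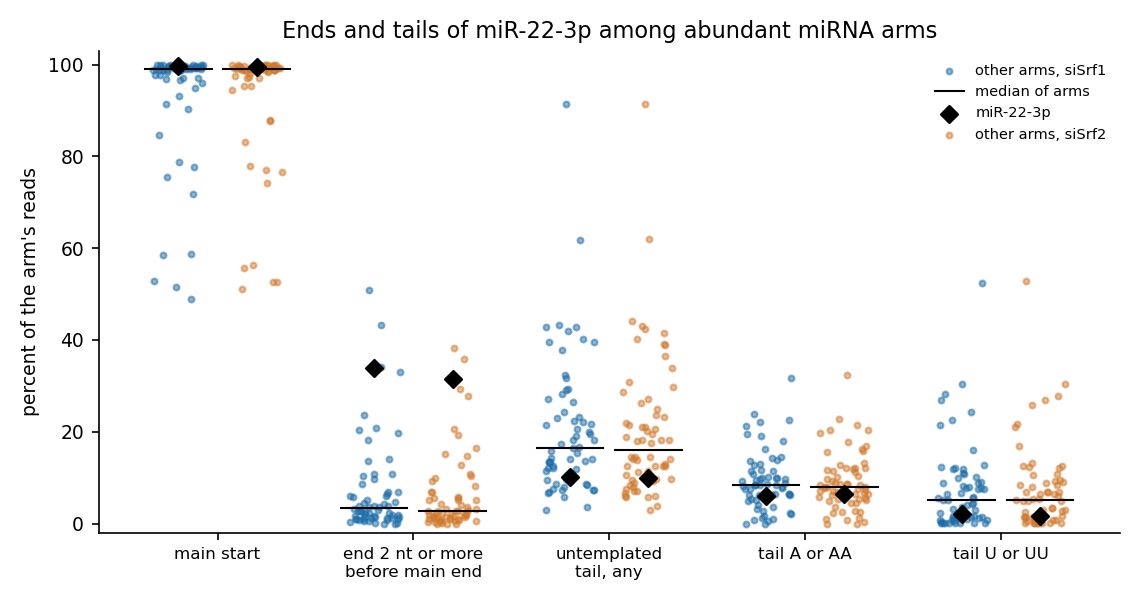
Percent of each arm's reads (y axis) with 5 features of ends and tails (x axis) for 64 abundant miRNA arms, with the library labelled siSrf1 left of the library labelled siSrf2, bars at the medians and diamonds for miR-22-3p. Short ends alone are a percent of the arm's exact reads. miR-22-3p lies above the median for short ends (33.9% and 31.4% against 3.31% and 2.78%) and below it for tails of any kind (10.1% and 9.91% against 16.6% and 16.1%).

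The share of reads on which a tail was found differed by templated end. The next base of the gene sets in part which tails can be seen, so the ends are not ranked here. At the RefSeq end 3.89% of 4115 reads in the library labelled siSrf1 and 4.77% of 3819 in the library labelled siSrf2 were tailed, 140 and 165 of these reads with A or AA. At the end 2 nt short, 11% of 2222 and 10.4% of 1797 were tailed, and there tails of U or UU (127 and 85 reads) outnumbered those of A or AA (60 and 55). At the end 3 nt short, 59.9% of 344 (54.5 to 65.1) and 56.1% of 271 (50 to 62.1) were tailed, in most cases with A or AA (187 of 206 and 138 of 152 tailed reads). The base that follows in the gene is U at the RefSeq end and at the ends 1 and 3 nt short, so an added U cannot be seen there. The counts of A and U tails at these ends cannot be compared. Nor can the tailed shares be compared between these ends and the others, because tails that begin with U are missed at some ends only.

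Some tailed forms can also be read as a templated form of equal length with 1 changed base. The 20 nt form with A is then U20A (positions counted from 1 at the 5' end of the arm), at 7.36% and 6.53% of both 20 nt forms in the libraries labelled siSrf1 and siSrf2. This is above every single change at positions 1 to 20 of the 22 nt form, of which the highest had 2.15% and 2.07%. The form with UU is G21U, at 1.77% and 1.2%, below that highest change, C8U. The next change after C8U was U11C (1.16%) in the library labelled siSrf1 and U11G (1.24%) in the library labelled siSrf2. This tail thus cannot be told apart from a single base change. The miR-22-5p form that is 1 nt shorter with U is A22U, at 1.46% and 2.89% (8 and 13 reads). The most frequent change at positions 1 to 20 of that arm, U3G, had 2.11% (1.13 to 3.58) and 2.27% (1.14 to 4.03). A22U was above U3G in the library labelled siSrf2 but inside its interval, so it cannot be told apart either.

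The partner arm had its ends at adjoining bases. miR-22-5p was read as 16 distinct inserts in each library, and the following 5 held 97.7% and 97.4% of its reads.
RefSeq form, 22 nt: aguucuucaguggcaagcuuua
1 nt shorter, 21 nt: aguucuucaguggcaagcuuu
1 nt longer, 23 nt: aguucuucaguggcaagcuuuau
RefSeq form with A, 23 nt: aguucuucaguggcaagcuuuaA
1 nt shorter with U, 22 nt: aguucuucaguggcaagcuuuU
The RefSeq form had 540 reads in the library labelled siSrf1 (60.4%, 57.1 to 63.6) and 437 in the library labelled siSrf2 (59.7%, 56 to 63.3). The form 1 nt shorter had 265 (29.6%) and 226 (30.9%), and the form 1 nt longer 36 and 20. Tails were found on 42 reads (4.7%, 3.41 to 6.3) and 35 reads (4.78%, 3.35 to 6.59), a difference of -0.0834 points (-2.25 to 1.99). The next base of the gene is U at the RefSeq end and A at the end 1 nt short. An added U or A there counts as templated, giving the form 1 nt longer or the RefSeq form. The tail shares may thus be too low and the shares of these forms too high. For all 5 forms the interval of the difference between libraries included 0, and with 894 and 732 reads the precision was lower than for miR-22-3p: the interval of the RefSeq form's difference ran from -4.06 to 5.49 points.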

How the data were processed

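The authors deposited counts of reads for every distinct sequence of each library, without normalization, per their readme. An Illumina kit for small RNA and a Genome Analyzer were used, per the labels' protocols. Which filter, aligner or build they applied is not given in the sources used here. The deposited sequences are 36 nt reads that include the 3' adapter.

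Inserts ended where the adapter's first 8 nt began without mismatch, or where its first 4 nt or more closed the read, and were kept from 15 nt on and without N. An adapter was missing in 32.6% (labelled siSrf1) and 31.8% (labelled siSrf2) of reads, and 7748874 and 7013026 inserts of 18 to 25 nt remained. They were matched to 991 hairpins of the RefSeq table (GRCm38.p6) and to 34 hairpins of GENCODE vM1 (NCBIM37) whose symbol RefSeq lists. A match was exact, or exact over at least 16 nt with a tail of 1 or 2 bases, an exact one being preferred. An insert counted for an arm if it overlapped the mature sequence by 15 nt or more (for the 34, the most frequent insert of each hairpin side), and was shared equally between arms it fitted equally well. miRNAs outside these hairpins and arms are not analysed here.

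Levels are relative to all miRNA reads of a library. The rule of size was a ratio of at least 2-fold with the whole interval on 1 side of 0, for arms with at least 50 summed reads. Isoforms named hold at least 1% of their arm's reads in either library, up to 10 per arm. Other miRNAs named are the 2 next above and below miR-22-3p in mean share, the 3 nearest in log2 ratio, and members of a list for heart muscle growth. Members and lists were chosen with earlier results of these data known. Trimming, matching and the size rule were tested on simulated data. Tools were Python 3.11.15, numpy 2.4.6, scipy 1.17.1, pandas 2.3.3, pysam 0.24.0, RNAfold 2.7.2, and for factors of scaling edgeR 4.0.16 (TMM) and DESeq2 1.42.0 (median of ratios) in R 4.3.3. Reads carry no molecular identifiers, so intervals cover counting error only.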

Additional observations from a re-analysis of the deposited data

Results flagged for a closer look

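Reads that begin with the first 18 nt of an arm but hold no adapter match did not enter the counts. For miR-22-3p they numbered 772 in the library labelled siSrf1 and 688 in the library labelled siSrf2, which is 9.77% (9.13 to 10.5) and 9.78% (9.1 to 10.5) of all reads with this start. For miR-22-5p they numbered 218 and 146, or 19.4% (17.2 to 21.9) and 16.6% (14.2 to 19.3). They drew attention because they lie outside the counted inserts and above what a count of 0 allows. The adapter's first 8 nt were found with up to 2 mismatches after 18 to 25 nt in 93.7% and 91.4% of those of miR-22-3p and in 95% and 95.2% of those of miR-22-5p. Their share was thus alike in both libraries for miR-22-3p and higher for miR-22-5p than for miR-22-3p in each.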

How the results depend on the processing

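No paired analysis was possible because there is a single library per group. Of the alternatives run, those of scaling moved the level ratios of miR-22 beyond their counting intervals. The log2 ratio of miR-22-3p, -0.03 as reported, was 0.46 with TMM and 0.53 with median-of-ratios factors, 0.08 scaled to all inserts of 15 nt or longer and 0.35 without miR-1a-3p in the total. That of miR-22-5p, 0.09 as reported, was 0.57 with TMM, 0.64 with median-of-ratios factors and 0.46 without miR-1a-3p in the total. The number of arms past the size rule was 64. It came to 38 with either TMM or median-of-ratios factors, 19 with a minimum of 500 reads, which leaves 118 arms, and 105 with no minimum, which leaves 687. Scaled to all inserts of 15 nt or longer, miR-22-5p lay at 0.20, with an interval (0.05 to 0.34) that leaves out 0. The differences between libraries in 5p share, main start, tail and 22 nt share of miR-22 stayed within their reported intervals with 12 nt of adapter, inserts of 20 to 24 nt and sequences seen once left out. The 5p share difference came to 1.34 points (0.37 to 2.31) over all reads with the first 18 nt of an arm, with or without adapter, an alternative chosen after seeing the data. Where sequences seen once were left out, the interval of the main start difference left out 0 (0.225 points, 0.0238 to 0.445). Depth limits miR-22-5p most, and 1 library per title leaves the spread between cultures unmeasured.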

Other observations

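As counted here, single base changes were more frequent in 22 nt reads of miR-22-3p than in full-length reads of the other arms compared. Among 22 nt reads that start as the RefSeq form, 713 of 4650 (15.3%, 14.3 to 16.4) from the library labelled siSrf1 and 586 of 4207 (13.9%, 12.9 to 15) from the library labelled siSrf2 held exactly 1 change at positions 1 to 20. This ranked 1 of 42 arms in both libraries, whose medians were 10.5% and 8.65%. Reads of an A-to-G change, the trace of adenosine deamination in RNA, were few: 13 with the label siSrf1 and 15 with siSrf2.

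The most frequent change was C8U, in the last base of the seed, named after its values were seen. The form reads, with the changed base in capitals:
C8U form of miR-22-3p: aagcugcUaguugaagaacugu
It had 100 reads in the library labelled siSrf1 and 87 in the library labelled siSrf2, 2.15% (1.75 to 2.61) and 2.07% (1.66 to 2.54) of those 22 nt reads. In the 5 other arms with C at position 8 the same change had 0.0353% to 0.195% and 0% to 0.219%. Neither the 22 nt form nor its first 18 nt matched NCBIM37. The change was rarer in 20 nt reads, with 5 of 1980 (0.253%, 0.082 to 0.588) and 3 of 1607 (0.187%, 0.0385 to 0.545), than in 22 nt reads counted the same way, with 100 of 4037 (2.48%, 2.02 to 3) and 87 of 3708 (2.35%, 1.88 to 2.89). At 19, 21 and 23 nt it had 1 or 2 reads in each library (0.847% to 1.72%). The intervals at these lengths all included the 22 nt share of the same library. Without C8U, changes at positions 1 to 18 were found in 10.2% and 9.94% of 20 nt reads and in 13% and 11.3% of 22 nt reads. The source of these reads was not tested.

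A17C, also named after its values were seen, differed between the libraries, with 43 reads (0.925%, 0.67 to 1.24) in that labelled siSrf1 and 13 (0.309%, 0.165 to 0.528) in that labelled siSrf2. The same change had medians of 0.202% and 0.113% in 13 other arms with A at position 17, and went up to 2.44% and 1.52%. In miR-22-5p the most frequent change was U3G, with 13 of 617 reads (2.11%, 1.13 to 3.58) and 11 of 484 (2.27%, 1.14 to 4.03), against at most 1.17% and 1.21% in 5 other arms with U at position 3.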
